A study of Mus musculus with 12 samples.

Results

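Cyclic AMP feedback and target genes were followed in the adrenal medulla of mice given insulin or saline. The set comprised 10 genes, namely Sik1, Crem, Pde4b, Pde4d, Pde10a, Rgs2, Rgs4, Gem, Nfil3 and Bdnf. A gene was taken by its symbol in the array annotation, with the probe set of highest mean over the 12 arrays where there were several. The annotation used here paired 8 of the 10 with a probe set, 1 each, out of 19505 genes measured. Crem and Pde4d were not analysed here.

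The tissue came from 12 male C57Bl6 mice, each on its own Affymetrix array. Normally colonized mice and germ free mice, which carry no gut microbes, were fasted for 3 h and injected intraperitoneally with human insulin at 2 IU/kg or with the same volume of saline, and the medulla was dissected 90 min later. This gave 4 groups of 3 animals, numbered as colonized saline (1 to 3), colonized insulin (4 to 6), germ-free saline (7 to 9) and germ-free insulin (10 to 12). The design asked whether the response to insulin-induced hypoglycemia differs between colonized and germ-free animals. Values are log2 intensities after the authors' RMA processing, so a difference of 1 is a doubling, and the number of arrays limits their precision.

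In chromaffin cells, splanchnic nerve terminals release acetylcholine and the peptide PACAP when blood glucose falls. PACAP receptors activate adenylyl cyclase, cyclic AMP activates protein kinase A, and the kinase phosphorylates the transcription factor CREB, which induces a set of early genes. Several of these early genes close the loop: salt-inducible kinases hold back the CREB coactivators, phosphodiesterases degrade cyclic AMP, and RGS proteins switch off heterotrimeric G proteins.

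The medullary pieces carried transcripts of several tissues, and some of them differed between groups. The mean of 12 measured chromaffin markers, among them Th, Dbh and Chga, ranged from 10.95 to 11.69 in the 6 colonized arrays, from 11.01 to 11.18 after saline and from 10.25 to 10.74 after insulin in germ-free arrays. Of these markers, Phox2a and Hand2 exceeded the background limit, defined below, on 0 of 3 arrays of each germ-free group. Gata2 did so on 1 of 3 germ-free insulin arrays. The remaining markers, Th, Dbh and Chga included, exceeded it on all 12 arrays. Adrenal cortex markers lay between 12.07 and 12.64. Adipocyte markers lay between 6.02 and 10.46 with colonization and between 8.94 and 10.78 without it, and intestinal markers stood at 7.31 to 9.20 in germ-free saline arrays against 4.72 to 5.00 in the others. Pituitary markers stood at 6.77 to 7.71 in germ-free insulin arrays and at 5.75 or below elsewhere. After insulin 5 of 7 were called higher in germ-free than in colonized mice, where 7.77% of all probe sets were called in either direction. Of the 5, Pomc, Cga and Lhb exceeded the background limit on 0 of 12 arrays. Glial markers were lower in germ-free mice after saline (5.79 to 5.96 against 6.47 to 7.94), with 3 of 5 called, against 6.9% of all probe sets. Of the 3, Erbb3 exceeded the background limit on 0 of 12 arrays, and Mbp and Fabp7 on 0 of 3 germ-free saline arrays. The part of these tissues in the members' differences was not tested beyond the cortex and adipocyte covariates. Rows that the array names as negative controls had medians of 4.70 to 4.83 with colonization and 5.30 to 5.54 without, whereas the mean of the 23 background rows was 4.87 to 5.02 and 4.68 to 4.81. Colonization status and any difference in how those arrays were run cannot be told apart. In such bulk tissue, fewer cells of a type and less RNA per cell cannot be told apart either.

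**Figure D1:**
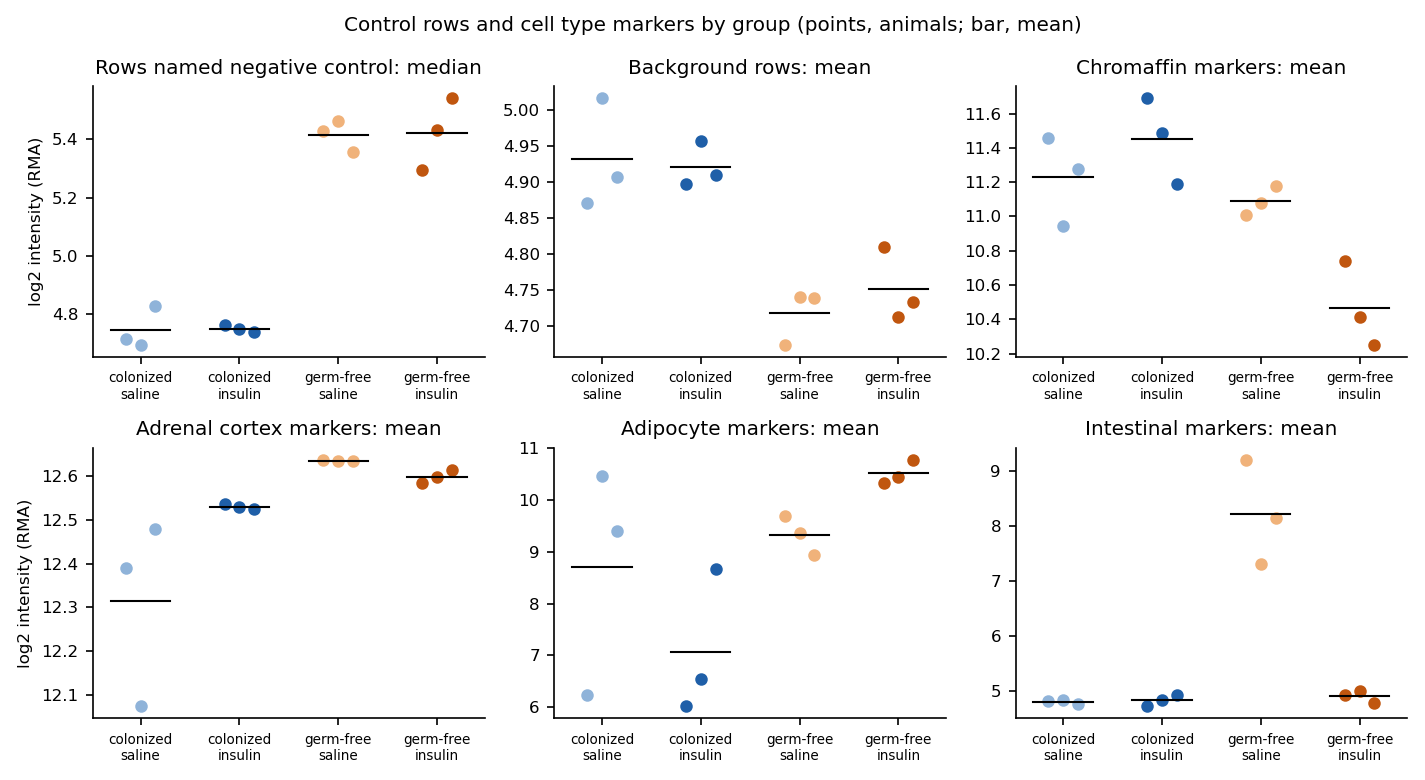
Control rows and cell type markers in each array, as log2 intensity by group; points are animals and bars group means. The negative control rows lie between 5.30 and 5.54 in all germ-free arrays and at 4.83 or below in all colonized arrays, and adipocyte markers range from 6.24 to 10.46 among the 3 colonized saline animals.

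A probe set was taken as above background on an array when it exceeded the 95th percentile of the negative control rows of that array (between 7.21 and 7.48 for colonized mice, between 8.23 and 8.41 for germ-free mice). Sik1, Pde10a, Rgs2, Rgs4 and Gem exceeded it on all 12 arrays and Nfil3 on 7. Pde4b exceeded it on 1 array and Bdnf on 0, so their values are given without a fold change.

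Promoters are shown for Nfil3 and Rgs2, which were higher in germ-free mice, and for Rgs4, whose difference between the colonization states did not pass the test, because CREB binds the cyclic AMP response element TGACGTCA or its core TGACG. Each sequence is the 250 bases before a start site, 5′ to 3′ on the strand of the gene, from RefSeq on GRCm38.p6. Nfil3 is chr13:52981040-52981289, Rgs2 is chr1:144004150-144004399 and Rgs4 is chr1:169747643-169747892, all on the minus strand. Capitals mark the core on either strand (TGACG or CGTCA).
Nfil3: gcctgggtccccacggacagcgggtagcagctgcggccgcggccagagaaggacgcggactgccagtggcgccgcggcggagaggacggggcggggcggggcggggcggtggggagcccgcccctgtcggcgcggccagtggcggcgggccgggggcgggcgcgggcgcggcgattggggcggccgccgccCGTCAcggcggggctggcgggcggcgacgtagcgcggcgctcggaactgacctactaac
Rgs2: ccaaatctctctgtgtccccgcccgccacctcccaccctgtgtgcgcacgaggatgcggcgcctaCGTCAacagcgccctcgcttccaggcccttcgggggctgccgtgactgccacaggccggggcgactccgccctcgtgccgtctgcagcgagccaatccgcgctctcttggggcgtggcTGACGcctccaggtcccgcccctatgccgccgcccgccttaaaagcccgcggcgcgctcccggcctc
Rgs4: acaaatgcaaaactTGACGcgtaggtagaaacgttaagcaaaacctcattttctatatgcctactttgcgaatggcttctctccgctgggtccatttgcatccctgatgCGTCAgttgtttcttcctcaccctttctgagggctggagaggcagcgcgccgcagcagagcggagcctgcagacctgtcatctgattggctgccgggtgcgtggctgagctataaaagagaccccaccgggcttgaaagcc
The Nfil3 window held 1 core, with its first base 59 bases before the start. Rgs2 held 2, at 185 and 67 bases before the start, and Rgs4 held 2, at 236 and 141 bases. The full element TGACGTCA, which contains the core on each strand, was found in 0 of the 16 windows of the 6 members that the table covers (Pde4b, Pde10a, Rgs2, Rgs4, Nfil3 and Bdnf), against 1.79% of all 32851 windows of 300 bases, 250 before and 50 after a start. The core was in 5 of the 16 windows (31.2%), against 20.8% of all windows. The others were 1 of the 4 Pde4b windows and 1 of the 7 Bdnf windows, and the 2 Pde10a windows held none. Whether these cores relate to the differences between groups was not tested, and a match here is a description of letters, not of binding.

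Sik1 encodes salt-inducible kinase 1, which phosphorylates the CREB coactivators of the CRTC family and so limits CREB output. It stood at 7.85, 7.61 and 8.41 in colonized saline animals and at 9.95, 9.28 and 8.93 in colonized insulin animals. In germ-free mice it stood at 9.64, 9.73 and 9.18 after saline and at 10.29, 10.54 and 10.90 after insulin. All insulin values lay above all saline values within each colonization state, and all germ-free values lay above the colonized values of the same treatment. The germ-free saline animals had Sik1 levels within the range of the colonized insulin animals (means 9.52 ± 0.30 and 9.39 ± 0.52, SD, n = 3).

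Averaged over the colonization states, insulin raised Sik1 by 1.24 ± 0.19 on the log2 scale (SE, 3 arrays per group, limma adjusted p = 0.0155), a 2.37-fold change. Within states the difference was 1.43 ± 0.27 in colonized mice (limma adjusted p = 0.072) and 1.06 ± 0.27 in germ-free mice (limma adjusted p = 0.18), neither past the threshold of 0.05. The averaged rise missed the threshold without germ-free animal 9, 11 or 12 (limma adjusted p of 0.0556 to 0.0592), and the colonized rise passed it without colonized animal 3 or 6 (limma adjusted p = 0.0464 and 0.0394). Germ-free animals exceeded colonized animals by 1.56 ± 0.27 after saline (2.95-fold, limma adjusted p = 0.00845) and by 1.19 ± 0.27 after insulin (2.28-fold, limma adjusted p = 0.0221). The latter was not called without animal 5, 6, 11 or 12 (limma adjusted p of 0.0645 to 0.0988). With adrenal cortex markers as a covariate the difference after saline was 0.99 (limma adjusted p = 0.172), and cortex markers were 12.07 to 12.48 in colonized saline and 12.63 to 12.64 in germ-free saline arrays. The slope of that covariate rests mainly on the 3 colonized saline arrays, so this fit cannot tell cortex content and colonization apart.

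Nfil3, a bZIP repressor that opposes the D-box activators of the circadian clock, had the same order of groups. Its values were 6.26, 6.99 and 6.66 in colonized saline, 8.04, 7.59 and 7.41 in colonized insulin, 8.42, 8.24 and 7.83 in germ-free saline and 8.68, 8.82 and 9.23 in germ-free insulin animals. Insulin and saline groups did not overlap in either state, nor did the colonization states under either treatment. Nfil3 exceeded the background limit of its array in 0 of 3 colonized saline and 1 of 3 germ-free saline animals, and in all 3 animals of each insulin group, so the saline values are limited by background.

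As fitted on these values, insulin raised Nfil3 by 0.89 ± 0.16 averaged over the states (limma adjusted p = 0.0363, 3 arrays per group). The difference was 1.04 ± 0.23 in colonized mice and 0.75 ± 0.23 in germ-free mice, not called in either (limma adjusted p = 0.119 and 0.283). The averaged call was lost without any of animals 1, 3, 4, 5, 8, 9, 10, 11 and 12, at limma adjusted p of 0.0507 to 0.118, and with all rows of the table tested (0.0547). Germ-free mice exceeded colonized mice by 1.53 ± 0.23 after saline (limma adjusted p = 0.0036) and by 1.23 ± 0.23 after insulin (limma adjusted p = 0.00881). Counted from the background limit, colonized saline Nfil3 was at least 1.29-fold lower than colonized insulin Nfil3. No such bound is given for colonized against germ-free saline mice, since Nfil3 was above background on only 1 array of the latter, and the differences of 0.75, 0.89 and 1.53 rest on values partly below it.

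Gem, a small GTPase of the RGK family that inhibits voltage-gated calcium channels, stood at 8.38, 9.44 and 8.89 in colonized saline and at 10.62, 9.93 and 10.16 in colonized insulin animals. In germ-free mice it stood at 10.99, 10.95 and 10.34 after saline and at 11.03, 11.30 and 11.68 after insulin. The groups separated in each of these comparisons, but in germ-free mice by as little as the gap between 10.99 and 11.03.

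The insulin difference of Gem was 1.34 ± 0.28 in colonized mice (limma adjusted p = 0.102) and 0.58 ± 0.28 in germ-free mice (limma adjusted p = 0.63). Averaged it was 0.96 ± 0.20 (limma adjusted p = 0.069), just outside the threshold, and inside it without colonized saline animal 2 (1.09, limma adjusted p = 0.0191). Germ-free mice exceeded colonized mice in Gem by 1.85 ± 0.28 after saline (3.62-fold, limma adjusted p = 0.00387) and by 1.10 ± 0.28 after insulin (2.14-fold, limma adjusted p = 0.0341). The call after insulin was lost without animal 4, 5, 6, 11 or 12 (limma adjusted p of 0.0508 to 0.135). It was also lost with adipocyte markers as a covariate (0.53, limma adjusted p = 0.553).

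**Figure D2:**
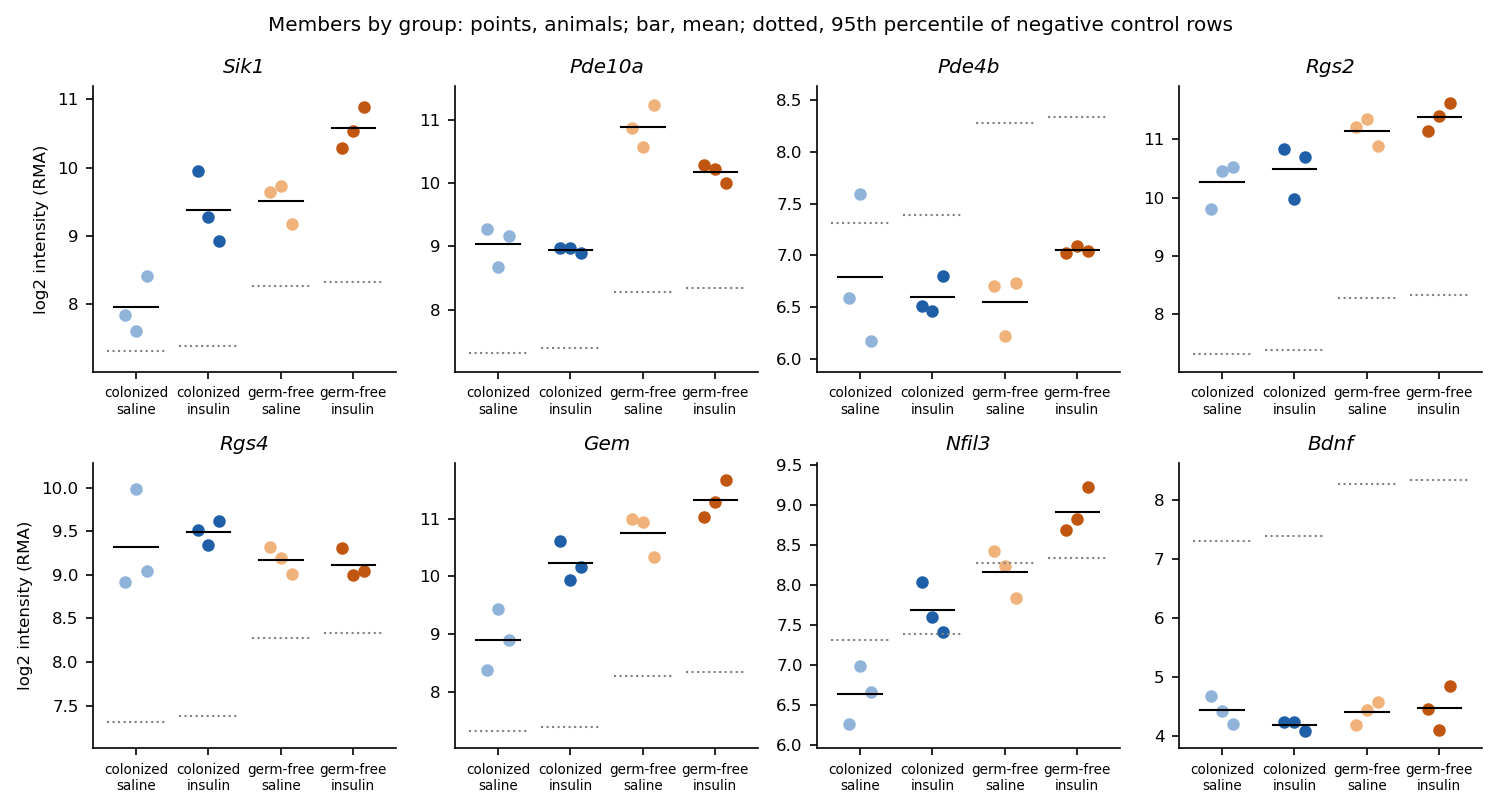
Log2 intensity of the 8 measured members by group; points are animals, bars are group means and dotted lines the group mean of the 95th percentile of negative control rows. Sik1, Gem and Nfil3 show the same step order, lowest in colonized saline and highest in germ-free insulin animals, while all 6 germ-free Pde10a values (10.00 to 11.24) lie above all 6 colonized ones (8.68 to 9.28).

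Phosphodiesterase 10A, encoded by Pde10a, hydrolyses cyclic AMP and cyclic GMP. Its values were 9.28, 8.68 and 9.17 in colonized saline, 8.97, 8.98 and 8.90 in colonized insulin, 10.87, 10.57 and 11.24 in germ-free saline and 10.28, 10.23 and 10.00 in germ-free insulin animals. The germ-free values were higher throughout, and within germ-free mice the insulin values lay below the saline values.

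Germ-free mice exceeded colonized mice in Pde10a by 1.85 ± 0.18 after saline (3.61-fold, limma adjusted p = 0.000454) and by 1.22 ± 0.18 after insulin (2.33-fold, limma adjusted p = 0.0037). These calls held in all 12 fits that left out an array and under all 11 other settings tried. The insulin difference was -0.72 ± 0.18 in germ-free mice (limma adjusted p = 0.166; 0.0456 without colonized saline animal 2) and -0.09 ± 0.18 in colonized mice (limma adjusted p = 0.872). The difference between these insulin effects was -0.63 ± 0.26, with a 95% interval of -1.19 to -0.07 before adjustment and a limma adjusted p of 0.449. Phosphodiesterase 4B, from Pde4b, is specific for cyclic AMP, and its probe set gave 6.59, 7.60 and 6.18 in colonized saline, 6.51, 6.47 and 6.81 in colonized insulin, 6.71, 6.23 and 6.73 in germ-free saline and 7.03, 7.09 and 7.05 in germ-free insulin animals. Animal 2, at 7.60, was the only array on which it exceeded the background limit. That animal also had the highest liver (10.74), fibroblast (10.22) and glial (7.94) marker means of all arrays and the lowest cortex mean (12.07). The part of these tissues in its Pde4b value was not tested.

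RGS proteins speed up GTP hydrolysis on G protein alpha subunits, Rgs2 acting chiefly on Gq and Rgs4 on Gi and Gq. Rgs2 stood at 9.80, 10.45 and 10.53 in colonized saline, 10.83, 9.97 and 10.70 in colonized insulin, 11.21, 11.36 and 10.89 in germ-free saline and 11.15, 11.41 and 11.62 in germ-free insulin animals. The colonization states did not overlap, and the treatments overlapped in each state. Rgs4 stood at 8.92, 9.99 and 9.05, then 9.51, 9.34 and 9.61, then 9.32, 9.19 and 9.01, then 9.30, 9.00 and 9.05 in the same order of groups. Apart from colonized saline animal 2 (9.99), the Rgs4 values lay between 8.92 and 9.61, and after insulin all germ-free values were below all colonized values.

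Rgs2 was higher in germ-free mice by 0.89 ± 0.25 after saline and by 0.89 ± 0.25 after insulin (limma adjusted p = 0.04995 and 0.0462). Both calls were close to the threshold. The first was lost without any of animals 1, 4, 6, 7, 8, 9, 10, 11 and 12 (limma adjusted p of 0.0541 to 0.157), and the second without any of animals 4 to 12 (0.0557 to 0.162). The insulin difference of Rgs2 was 0.24 ± 0.25 in each state (limma adjusted p = 0.721 and 0.918), and its 95% interval averaged over the states was -0.14 to 0.62. For Rgs4 the averaged insulin difference was 0.06 ± 0.16, with a 95% interval of -0.29 to 0.41. The differences of Rgs4 between germ-free and colonized mice were -0.15 ± 0.23 after saline and -0.37 ± 0.23 after insulin (limma adjusted p = 0.747 and 0.376). The first changed sign with array weights (0.09), with the cortex covariate (0.70) and without animal 2 (0.19). Cortex markers varied within groups mainly in colonized saline mice (SD 0.21, at most 0.015 elsewhere), where animal 2 was lowest. The covariate fit and the fit without animal 2 are therefore not separate checks.

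Bdnf, the brain-derived neurotrophic factor and a classical CREB target in neurons, gave 4.69, 4.42 and 4.21 in colonized saline, 4.24, 4.24 and 4.09 in colonized insulin, 4.18, 4.45 and 4.58 in germ-free saline and 4.46, 4.10 and 4.85 in germ-free insulin animals. These values lay below the mean of the background rows on 11 of the 12 arrays and were not distinguishable from background here.

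Counted together, 2 of the 8 measured members (Sik1 and Nfil3) rose with insulin averaged over the states, where limma called 0.419% of all 19572 probe sets and 0.255% as higher. There 4 of 8 had an unadjusted p under 0.05, against 10.3% of all. Within colonized mice 0 of 8 passed the adjusted threshold against 0.153% of all, and 3 had an unadjusted p under 0.05 against 11.8%. Insulin and saline did not overlap there for 3 members, against 14.1% of all probe sets. Within germ-free mice 0 of 8 passed against 0.439%, 3 had an unadjusted p under 0.05 against 8.31%, and groups did not overlap for 5 against 19.7%. Of these 5, 4 were higher with insulin, the dim Pde4b among them, and Pde10a was lower. Sik1, Gem and Nfil3 had insulin above saline with no overlap in both states, which held for 0.863% of all probe sets. The members' median insulin difference was 0.20 in colonized and 0.37 in germ-free mice, beside 0.00 and 0.01 over all probe sets. Pde4b and Bdnf, given above without a fold change, enter these medians, and in germ-free mice the dim Pde4b helped to set the value.

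Between colonization states, 5 of 8 members were called after saline (Sik1, Pde10a, Rgs2, Gem and Nfil3), against 6.9% of all probe sets, and the same 5 were called after insulin, against 7.77%. All these calls were higher in germ-free mice, as were 2.82% and 2.62% of all probe sets. The groups did not overlap for 5 of 8 members after saline and 7 of 8 after insulin, against 27.3% and 31.8% of all. The 5 after saline were all higher in germ-free mice. Of the 7 after insulin, 6 were higher, the dim Pde4b among them, and Rgs4 was lower. Germ-free values above colonized values with no overlap under both treatments were found for the 5 called members and for 3.73% of all probe sets. The comparisons of insulin with saline and of germ-free with colonized mice share arrays and are not independent. The members' median was 1.21 after saline and 0.99 after insulin, beside -0.04 and -0.03 over all probe sets. These medians also include the dim Pde4b and Bdnf. Over all probe sets, 40.9% of the calls after saline and 33.7% after insulin were higher in germ-free mice. These shares became 58.4% and 44.9% with a second quantile normalization, 64.2% and 51.2% with arrays centred on their median, and 0.622% and 0.584% with arrays centred on the negative control rows.

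Centring on the negative control rows, chosen after seeing their levels, moved the median of all probe sets to -0.71 after saline and -0.70 after insulin. The 5 called members stayed above 0 on that scale. After saline Gem (1.19), Pde10a (1.18), Sik1 (0.89) and Nfil3 (0.86) were still called higher and Rgs2 (0.22, limma adjusted p = 0.356) was not. After insulin Pde10a (0.55) and Nfil3 (0.56) were called higher, and Sik1 (0.52, limma adjusted p = 0.0569), Gem (0.42, 0.134) and Rgs2 (0.22, 0.357) were not. Rgs4 was called lower on that scale after saline (-0.81) and after insulin (-1.04). So were most of the 17204 and 17288 probe sets called there in either direction, out of 19572. Adipocyte markers did not overlap between the states after insulin (at most 8.66 in colonized arrays, at least 10.32 in germ-free ones), with 6 of 9 markers called, against 7.77% of all probe sets. With them as a covariate Pde10a alone of the 5 was called after insulin (1.59), and Sik1 (1.43) and Nfil3 (0.94) were not (limma adjusted p = 0.165 and 0.242).

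**Figure D3:**
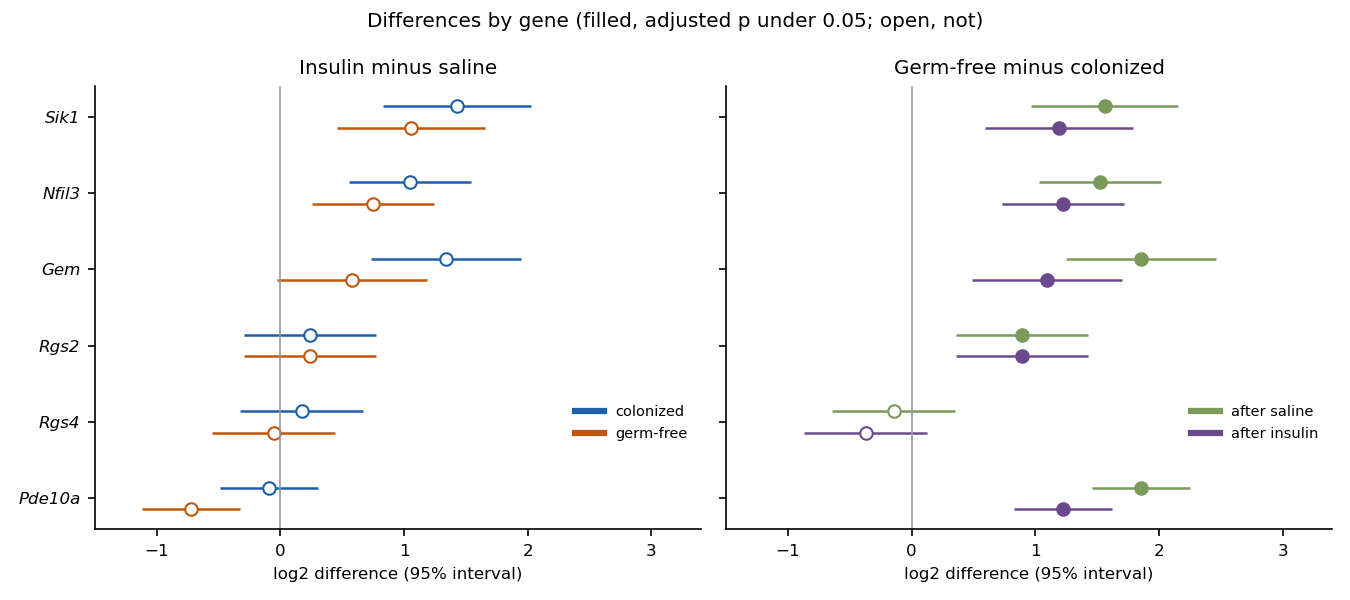
Log2 differences with 95% intervals from limma for 6 members, without the dim Pde4b and Bdnf, insulin minus saline at left and germ-free minus colonized at right. Filled points have an adjusted p under 0.05. Nfil3 exceeded the background limit on 0 of 3 colonized saline and 1 of 3 germ-free saline arrays. Within a single colonization state no insulin difference is filled, although the Sik1 and Nfil3 intervals exclude 0 in both states, whereas 5 of 6 members are filled in both comparisons at right.

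The difference of the insulin effects, which is the study's central comparison, was called for 0 of 8 members, against 0.0358% of all probe sets. Pde10a was the only member with an unadjusted p under 0.05, against 9.97% of all. With the dim Pde4b and Bdnf left out, Gem had the largest size of difference among the members, -0.76 ± 0.39 with a 95% interval of -1.62 to 0.10. For Sik1 the difference was -0.37 ± 0.39 (interval -1.22 to 0.47) and for Nfil3 -0.30 ± 0.32 (interval -0.996 to 0.40). With intervals this wide, similar insulin effects in the 2 states were not established by the missed threshold.

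Among the members, Gem and Nfil3 followed each other most closely, with a root mean square difference of 0.18 between their centred log2 values over the 12 arrays, while each varied about its own mean by 0.96 and 0.86. Sik1, which varied by 0.99 about its own mean, lay 0.32 from Nfil3 and 0.39 from Gem. Pde4b and Rgs4 were 0.36 apart but varied about their own means by only 0.38 and 0.30, so that distance shows no shared pattern. Over all named probe sets, with predicted genes left out, the genes nearest to Sik1 were Plk3 (0.21), a stress-responsive kinase gene, Ier3 (0.31), an early response gene, and Nfil3. Those nearest to Gem were Nfil3, Ier3 (0.26) and the orphan nuclear receptor gene Nr4a3 (0.34), and those nearest to Nfil3 were Gem, Ier3 (0.27) and the AP-1 gene Fosb (0.29). Plk3 exceeded the background limit on 7 of 12 arrays. The probe sets nearest to Pde10a were Tbrg3 (0.31), Adam4 (0.34) and the antisense transcript Kcnq1ot1 (0.34), each above the background limit on 0 of 12 arrays, and the negative control rows were also higher in germ-free arrays. Rgs2 was nearest to Pcf11, Mc5r and St3gal6 (0.22 to 0.24), of which Mc5r was above the limit on 0 arrays.

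The rest of the pathway was described on 122 listed genes, of which 112 were measured. Genes that exceeded the background limit on 0 arrays of a group in a contrast are named without a value. Of the 22 measured genes of cyclic AMP production and its effectors, 0 were called for any insulin effect by limma. For the averaged effect 0.419% of all probe sets were called. There 2 of the 22 had an unadjusted p under 0.05, against 10.3% of all. In colonized mice 4 of the 22 did, against 11.8% of all, and in germ-free mice 0, against 8.31%. Prkar1b, a regulatory subunit of protein kinase A, was lower in germ-free mice after saline (-0.997 ± 0.19) and after insulin (-1.25 ± 0.19, above background on 1 of 3 germ-free insulin arrays), and the adenylyl cyclase gene Adcy3 was called lower after saline. After insulin Gnas, the stimulatory G protein subunit, was lower (-0.37 ± 0.10) and Prkar2b, another kinase subunit, higher (0.82 ± 0.19). Of 12 receptor genes, 5 were called lower in germ-free mice after insulin and 0 higher, where 7.77% of all probe sets were called in either direction. Among the 5 were Adcyap1r1, the PACAP receptor (-1.59 ± 0.26), and the nicotinic subunits Chrna7 (-1.26 ± 0.27) and Chrnb4 (-1.29 ± 0.34, above background on 1 of 3 germ-free arrays). The others were the nicotinic subunit Chrnb2 and the GLP-1 receptor gene Glp1r, both dim. In the same arrays 8 of 12 chromaffin markers were called lower and 0 higher (median -0.98), and the part of that in the receptor values was not tested.

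Among 9 CREB-type factors, coactivators and other salt-inducible kinases, the coactivator gene Crtc1 was called lower in germ-free mice after insulin, and Sik2 and Sik3 were not called in any contrast. Of 13 other phosphodiesterase genes, Pde3a was lower (-0.51 ± 0.12) and Pde3b higher (2.499 ± 0.63) in germ-free mice after insulin, where adipocyte markers were higher as well. For insulin 0 of the 13 were called, and 1 had an unadjusted p under 0.05 for the averaged effect in limma. Over all probe sets these averaged shares were 0.419% and 10.3%, which also stand beside the RGS and neurotrophin counts below. Of 18 other RGS genes, Rgs5 (-0.95 ± 0.20) and the dim Rgs17 were lower in germ-free mice after insulin and 0 were called for insulin (3 at an unadjusted p under 0.05 for the averaged effect). Of the other RGK genes, Rrad was called lower in germ-free mice after saline, opposite to Gem, but exceeded the background limit on 0 arrays. Among 7 D-box and clock genes, Per3 (0.69 ± 0.17) and the dim Ciart were higher in germ-free mice after insulin. Of the 5 neurotrophin and receptor genes 0 were called in limma, with 1 at an unadjusted p under 0.05 for the averaged insulin effect. The largest averaged insulin differences there were those of Ntrk2, the Bdnf receptor, and of the shared receptor Ngfr (limma adjusted p = 0.173 and 0.784), which exceeded the background limit on 9 and 6 of 12 arrays and on 0 of 3 germ-free saline arrays each.

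Over all probe sets, limma called 0.255% higher with insulin averaged over the states. Of the 24 measured other targets of cyclic AMP and CREB, 10 rose there and 0 fell. Among them were the nuclear receptor genes Nr4a2 (1.94 ± 0.25) and Nr4a1 (0.79 ± 0.15), the AP-1 gene Fosb (1.13 ± 0.12), the antiproliferative gene Btg2 (0.88 ± 0.16), the clock gene Per1 (0.71 ± 0.11) and the phosphatase gene Dusp1 (0.67 ± 0.12). The cyclooxygenase gene Ptgs2, the secreted peptide genes Vgf and Tac1 and the pituitary hormone gene Cga were the other 4. Of these, Ptgs2, Vgf and Tac1 exceeded the background limit on 0 of 6 saline arrays, and Cga on 0 of 12 arrays. Vgf and Tac1 also exceeded it on 0 of 3 germ-free insulin arrays. Cga, also one of the 7 pituitary markers, was called in germ-free mice and not in colonized mice. The pituitary hormone genes Gh, Prl and the dim Pomc were called higher with insulin in the same germ-free arrays. Egr1, an early zinc finger gene, was called in colonized mice (1.203 ± 0.19).

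Over all probe sets, 2.82% were called higher in germ-free mice after saline. Of the 24 other targets, 9 were called higher there and 0 lower, the direction seen for Sik1, Gem and Nfil3. They were Nr4a2 (1.62 ± 0.36), Nr4a3 (1.31 ± 0.35), Nr4a1 (1.19 ± 0.21), Fosb (1.19 ± 0.17), Egr1 (0.94 ± 0.19), Dusp1 (0.81 ± 0.17), the insulin receptor substrate gene Irs2 (0.58 ± 0.12) and the dim Ptgs2 and Arc. After insulin 3 were called higher, against 2.62% of all probe sets. They were Fosb (0.92 ± 0.17) and the dimmer Cga and Ppargc1a, and adipocytes also express Ppargc1a. The medians of this list were 0.67 for the averaged insulin effect and 0.45 for germ-free minus colonized after saline, beside 0.01 and -0.04 over all probe sets. The 22 genes of cyclic AMP production had medians of -0.04 and -0.25. The lists were chosen with earlier results of these data known, so the contrast between their medians is not a test. Both medians also include genes above background on 0 arrays, such as Sst, Npas4 and Arc among the targets and Adcy1 in the other list.

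**Figure D4:**
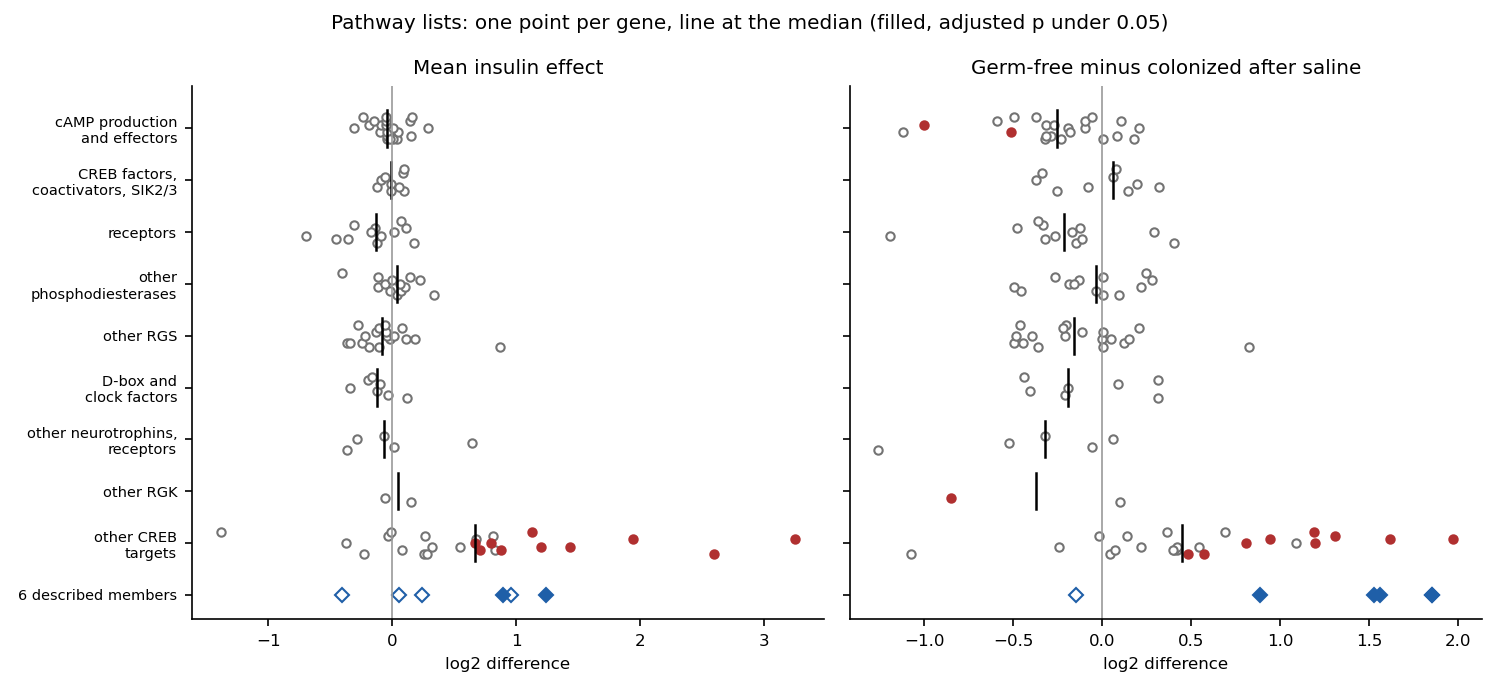
Log2 difference of each measured gene of 9 pathway lists and of the 6 described members (diamonds), for the averaged insulin effect and for germ-free minus colonized after saline; lines are list medians and filled points have an adjusted p under 0.05. Called insulin differences lie in the list of other CREB targets (10 genes) and among the members (Sik1 and Nfil3). The remaining 8 lists have none, where 0.419% of all probe sets were called. Dim genes are drawn too, and members and lists were chosen with earlier results of these data known.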

How the data were processed

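Adrenal medulla RNA of 12 mice was measured on Affymetrix arrays. The deposited table holds log2 intensities made by the authors, with RMA and limma named in the submitters' processing notes without a version. Whether the arrays were normalized in a single run is not stated. The table has 28846 rows with values from 2.46 to 13.9. Of these rows 19572 carried a single gene symbol, and 9274 without a symbol were left out. The promoter windows are those of RefSeq (GRCm38.p6).

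The 4 group means and 6 contrasts between them were estimated on the named probe sets of all 12 arrays (limma 3.58.1, R 4.3.3). The moderated test used default eBayes settings, with 8 residual and 4.08 prior degrees of freedom. P-values were adjusted by Benjamini-Hochberg across the 19572 probe sets, and an adjusted p below 0.05 was a call. Errors of differences are standard errors. On simulated data for the insulin effect in colonized mice (19572 probe sets), 79 of 100 log2 changes of 1 and 99 of 100 changes of 2 were called, with 10 false calls. The simulated noise was independent between probe sets, without variation shared across genes or group differences in tissue content. Those shares therefore need not hold for the real arrays.

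The alternatives tested all rows, left out dim probe sets (mean below 7.71) or kept a single probe set for each gene. Others renormalized by quantiles, centred arrays on the median or on negative controls, used trend and robust options or array weights, added cortex or adipocyte marker means as covariates, fitted the compared groups alone, or left out each array. The cortex marker mean varied within groups mainly among colonized saline arrays, so the slope of that covariate rests mainly on them. Members and gene lists were chosen with earlier results of these data known. The text names all members, list genes called in any contrast, the 2 largest averaged insulin differences of a list without a call, and the 3 genes (predicted genes passed over) nearest by root mean square difference to each member called in any contrast.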

Additional observations from a re-analysis of the deposited data

Results flagged for a closer look

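The rows that the array names as negative controls are outside the gene measurements. Over 5222 such rows the median per array was 0.67 higher in germ-free than in colonized mice (means of 5.42 and 4.75 on the log2 scale), and the 6 values of each state did not overlap. The 23 background rows moved the other way (-0.19). The part of this in the members' differences between colonization states was not tested beyond the centring on these rows. With 3 animals per group, no member value was tested as standing apart from its group.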

How the results depend on the processing

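No paired analysis was possible because the animals are numbered 1 to 12 and no number is shared between groups. A second probe set of a member was not run, since each measured member has 1. Over the 6 members other than Pde4b and Bdnf, 795 of 816 values under the alternatives kept their direction. Several alternatives changed the test and not the difference, namely those on the rows tested, the trend and robust options and the compared groups alone. Leaving out an array outside the compared groups did not change the difference either. Such values could not turn, so the count does not measure how stable the directions were.

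Probe sets called numbered 30 for insulin in colonized mice, and 13 with all rows, 51 with trend and robust options, 67 with array weights, 7 with the adipocyte covariate, 0 with the cortex covariate and 0 with the compared groups alone. In germ-free mice 86 became 32 without dim probe sets, 545 with array weights, 150 with the cortex covariate and 320 with the compared groups alone. For the difference, 7 became 1 with all rows or the adipocyte covariate, 2 with median centring and 149 with array weights. With median centring the share of higher calls went from 28.6% to 0% for the difference and from 61% to 72% for the averaged effect. For the averaged effect, 82 became 252 with array weights and 154 with the adipocyte covariate. After saline 1351 became 2358 with array weights, 158 with the compared groups alone and 17204 with negative control centring. After insulin 1521 became 3727 with array weights, 2967 with the cortex covariate, 26 with the adipocyte covariate and 17288 with negative control centring.

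Members called for insulin in colonized mice went from 0 to 1 without dim probe sets or with negative control centring, and to 2 with array weights. In germ-free mice they went from 0 to 3 with array weights and to 1 with the compared groups alone, and for the averaged effect from 2 to 1 with all rows. After saline 5 became 3 with the cortex covariate. After insulin 5 became 3 with trend and robust options or negative control centring and 1 with the adipocyte covariate.

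The small difference of insulin effects for Rgs2 (0.0031) turned to -0.038 with quantile renormalization, -0.0063 with median centring, -0.00018 with negative control centring, -0.074 with the cortex covariate and -0.43 with the adipocyte covariate. That of Sik1 turned to 0.081 with the cortex covariate. Rgs4 after saline turned to 0.088 with array weights and 0.70 with the cortex covariate. The cause was not tested.

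Leaving out each array in turn gave 1 to 71 probe sets and 0 to 1 members for insulin in colonized mice, 25 to 201 and 0 to 1 in germ-free mice, 1 to 83 and 0 to 0 for the difference, and 27 to 133 and 0 to 3 for the averaged effect. After saline it gave 435 to 1938 probe sets (lowest without animal 7, highest without animal 2) and 4 to 5 members, and after insulin 451 to 2854 (lowest without animal 12, highest without animal 2) and 2 to 5 members. Directions turned for Pde10a (-0.27 to 0.029) and Rgs4 (-0.028 to 0.50) under insulin in colonized mice, for Rgs4 under insulin in germ-free mice (-0.15 to 0.015), averaged (-0.042 to 0.22) and after saline (-0.34 to 0.19), and for the Rgs2 difference of effects (-0.26 to 0.23). None of these was called. Signal over background limits Pde4b, Bdnf and the saline values of Nfil3 in both states.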
